A study of Mus musculus with 50 samples.

Results

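Anti-PD-1 antibody was compared with isotype control antibody in transplanted mouse sarcomas, with the radiation dose as a blocking factor. The comparison was defined by the antibody, dose and model given in the labels, and held 16 of the 50 libraries of the series. Of these, 8 came from tumors given anti-PD-1 (4 at 0 Gy and 4 at 20 Gy) and 8 from tumors given isotype (4 at 0 Gy and 4 at 20 Gy). Of 37469 genes in the count table, 17746 passed the filter on low counts in these libraries and were tested.

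The study profiled p53/MCA sarcomas, in which Trp53, floxed in the germline (Trp53 fl/fl), is deleted in the gastrocnemius by an adenovirus carrying Cre (Adeno-Cre) and the carcinogen 3-methylcholanthrene (MCA) is injected at the same place. The transplants all grew from a single cell line made from 1 primary sarcoma, after injection of its cells with Matrigel into the gastrocnemius of syngeneic 129/SvJae mice. Each mouse received 200 ug of muDX400, a mouse antibody to PD-1, or of isotype antibody, followed at once by 0 or 20 Gy to the tumor-bearing hind limb, and tumors were harvested 3 days later. The comparison asks how PD-1 blockade alters the transcriptome of a transplant, whether or not it was irradiated. All 4 groups therefore share the deletion of Trp53, the carcinogen history and the line of origin, and the normal cells in them are those of immunocompetent hosts whose age and sex the labels do not give.

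PD-1, encoded by Pdcd1, is an inhibitory receptor that T cells display after activation. When its ligands PD-L1 (Cd274) or PD-L2 (Pdcd1lg2) bind, the phosphatase Shp2 (Ptpn11) is recruited and signaling through the T cell receptor and CD28 is damped. Antibodies that block PD-1 release this brake, and activated T cells then secrete interferon-gamma, which induces guanylate-binding proteins, immunity-related GTPases, chemokines, antigen processing genes and PD-L1 itself in the cells around them.

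Library totals ran from 36808039 to 54008259 counts. Levels are given as CPM (a gene's counts relative to the library total, scaled by the trimmed mean of M values, TMM), and differences as log2 fold changes of anti-PD-1 over isotype from edgeR's quasi-likelihood test. Some libraries stood apart. Anti-PD-1 replicate 2 at 20 Gy had the lowest mean of the cell cycle list (5.09 log2 CPM, against 5.83 to 6.38 in the other libraries of its group). It also had the lowest Y-linked Ddx3y (10.8 CPM, against 32.5 to 68.0 in the other 15) and the highest Xist (586 CPM, against at most 178). Xist was above 10 CPM in 1 of 4 isotype and 1 of 4 anti-PD-1 libraries at 0 Gy and in 3 of 4 of each at 20 Gy, so that it was balanced between antibodies and unbalanced between doses. The first digit of the mouse number was not balanced between antibodies. In replicates 1 to 4 at 20 Gy it was 4, 5, 4 and 4 with isotype and 4, 5, 5 and 5 with anti-PD-1. At 0 Gy it was 5, 5, 5 and 5 with isotype and 5, 4, 5 and 5 with anti-PD-1. Anti-PD-1 replicate 3 at 20 Gy had liver transcripts (list mean 5.09 log2 CPM, against at most 1.99 in the other transplants), and muscle transcripts were low in isotype replicate 1 of each dose (2.04 and 2.17 log2 CPM, against 6.68 or more elsewhere).

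No gene passed an adjusted p of 0.05 in edgeR's quasi-likelihood test, and the smallest adjusted p was 0.955. An unadjusted p under 0.05 was reached by 674 genes, of which 546 were higher (3.08% of those tested) and the rest lower (0.721%). Leaving out 1 library moved the number higher between 302 (without anti-PD-1 replicate 3 at 0 Gy) and 1100 (without replicate 4 of that group), and the number lower between 58 (without anti-PD-1 replicate 3 at 20 Gy) and 377 (without anti-PD-1 replicate 2 at 0 Gy). The median log2 fold change over the 17746 genes was -0.03 and 43.9% of them were positive. DESeq2 called 1 gene, Tnfrsf4, with a log2 fold change of 0.90 and an adjusted p of 0.0143, and limma voom called none. The values below are descriptions of genes and lists, none of which edgeR called.

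The genes with the smallest p in the higher direction were mostly transcripts of T cells. By rank they were Tnfrsf4, Ctla4, Pnp, Izumo1r, Trbc1, Foxp3, Ifi47, Insl6, Tnfrsf18 and Cish, and each had an adjusted p of 0.955 in edgeR's test. Their log2 fold changes ran from 0.43 for Cish to 1.22 for Ctla4. Several are known from regulatory T cells, which express Foxp3, Ctla4, Tnfrsf4 (OX40), Tnfrsf18 (GITR) and Izumo1r (folate receptor 4), although activated conventional T cells use most of these too.

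Tnfrsf4, on chromosome 4 at 156013843 to 156016612 of mm10, encodes the costimulatory receptor OX40. At 0 Gy its levels were 2.57, 3.45, 2.22 and 3.14 CPM with isotype and 6.38, 3.36, 5.82 and 3.27 CPM with anti-PD-1. At 20 Gy they were 3.70, 3.17, 3.58 and 2.47 CPM with isotype and 5.53, 6.08, 7.90 and 6.21 CPM with anti-PD-1. The groups overlapped at 0 Gy and did not overlap at 20 Gy. The blocked log2 fold change was 0.86 (SE 0.17), or 1.81-fold.

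Ctla4, on chromosome 1 at 60887000 to 60915832, encodes the inhibitory receptor that competes with CD28 for its ligands. It stood at 3.11, 6.96, 3.26 and 3.39 CPM with isotype and at 10.8, 4.06, 10.9 and 6.23 CPM with anti-PD-1 at 0 Gy. At 20 Gy it stood at 3.24, 2.06, 5.59 and 2.78 CPM with isotype and at 5.96, 9.83, 10.4 and 12.5 CPM with anti-PD-1. Isotype replicate 2 at 0 Gy lay within the anti-PD-1 range, and the groups at 20 Gy did not overlap. The log2 fold change was 1.22 (SE 0.28).

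Foxp3, the lineage transcription factor of regulatory T cells, lies on the X chromosome at 7573644 to 7595245, where it overlaps Ccdc22 and Ppp1r3f, so its counts are less certain. At 0 Gy the 4 isotype libraries held 1.12 to 1.67 CPM and the 4 anti-PD-1 libraries 2.07 to 4.47 CPM, without overlap. At 20 Gy isotype replicate 3 (3.10 CPM) exceeded 3 of the 4 anti-PD-1 libraries (2.61, 2.14 and 2.49 CPM), while the fourth held 6.62 CPM. The blocked log2 fold change was 1.18 (SE 0.29), a mean of 3.58 ± 1.56 CPM (SD, n = 8) over 1.59 ± 0.661 CPM (SD, n = 8).

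**Figure D1:**
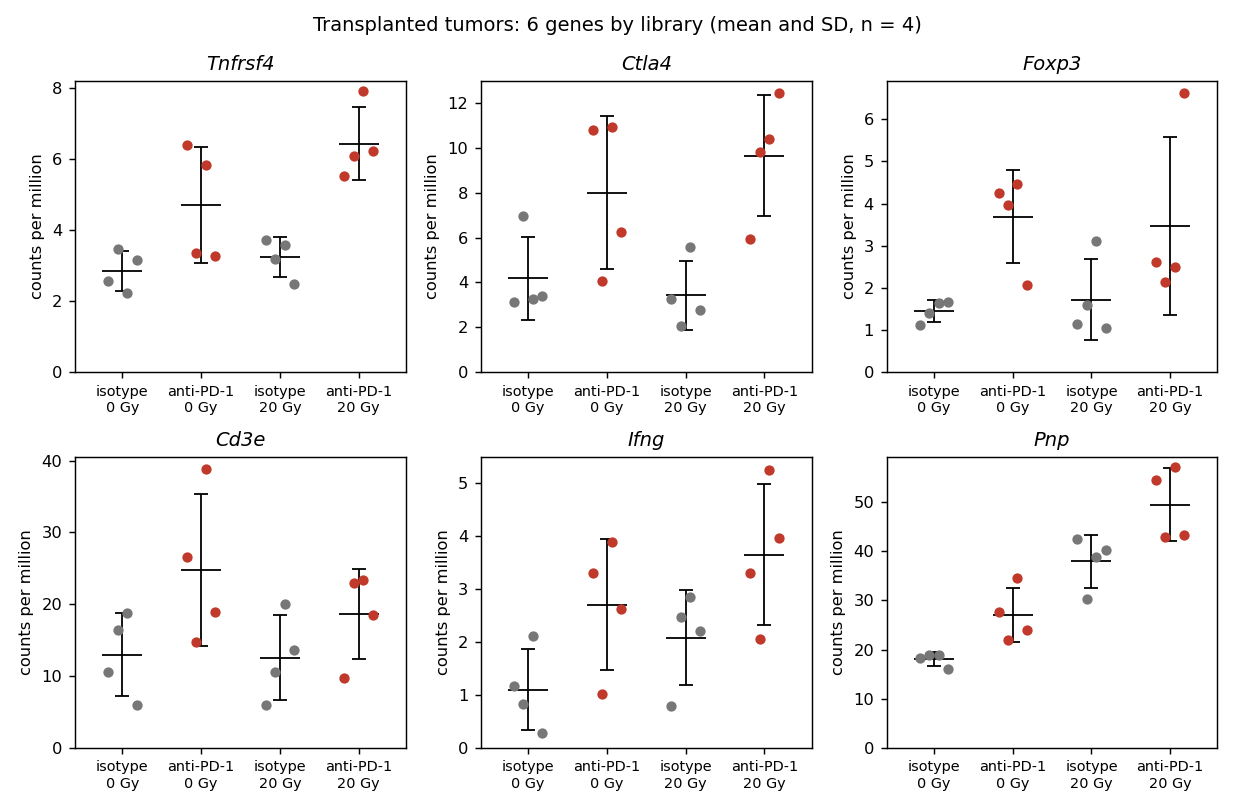
CPM of 6 genes in each transplant library (points), with the mean and SD of the 4 libraries of each antibody and dose (bars); gray is isotype and red anti-PD-1. Only Pnp has no overlap between antibodies at either dose among the 6, and the anti-PD-1 groups of Tnfrsf4 and Ctla4 lie above their isotype groups at 20 Gy.

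Pnp, which encodes purine nucleoside phosphorylase of the purine salvage pathway, was 1 of 2 genes whose anti-PD-1 libraries all exceeded the isotype libraries at both doses, which 0.0113% of the tested genes did. It read 16.04 to 19.0 CPM with isotype and 21.9 to 34.5 CPM with anti-PD-1 at 0 Gy, and 30.3 to 42.6 against 43.0 to 57.2 CPM at 20 Gy. The margin at 20 Gy was small. The log2 fold change was 0.48 (SE 0.11), and the gene overlaps the near-identical Pnp2, which leaves its counts uncertain. The second gene was Gm11427, a gene model chosen here after its values were seen, with a log2 fold change of 0.80. No gene was lower without overlap at both doses. At 0 Gy alone the anti-PD-1 libraries lay above all isotype libraries in 0.27% of the tested genes, and at 20 Gy alone in 0.828%.

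Of the T cell list (the CD3 chains, coreceptors, receptor constant regions and proximal kinases), 18 of 18 members tested were higher at an unadjusted p under 0.05, against 3.08% of all genes, and none was lower. Their log2 fold changes ran from 0.58 for Zap70, a kinase of the T cell receptor, to 1.15 for Cd3d, with a median of 0.82 against -0.03 over all genes. The members are transcripts of the same cells and move together, so the count does not stand for that many separate observations. In bulk tissue, more cells of a type and more RNA per cell cannot be told apart, and this holds for every cell type marker below. The shares of all genes, 3.08% higher at an unadjusted p under 0.05 and 43.9% positive, stand beside every blocked list count below.

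Cd3e, a signaling chain of the T cell receptor complex, read 10.6, 16.4, 18.8 and 5.95 CPM with isotype and 26.5, 14.7, 38.9 and 18.9 CPM with anti-PD-1 at 0 Gy. At 20 Gy it read 5.93, 10.6, 20.0 and 13.7 CPM with isotype and 9.72, 22.9, 23.4 and 18.6 CPM with anti-PD-1. The antibodies overlapped at both doses. Its log2 fold change was 0.75 (SE 0.29).

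Cd8a, the coreceptor of cytotoxic T cells, had a log2 fold change of 0.77, and Cd4, the coreceptor of helper T cells, one of 0.81. The mean of the T cell list per library was 2.84 ± 0.561 log2 CPM with isotype and 3.67 ± 0.720 with anti-PD-1 at 0 Gy (SD, n = 4 each), and 2.97 ± 0.514 and 3.74 ± 0.608 at 20 Gy (SD, n = 4 each). Within the anti-PD-1 groups the list was high in replicates 1 and 3 at 0 Gy (4.06 and 4.43) and in replicates 2 and 3 at 20 Gy (4.21 and 4.26). The remaining 4 libraries (2.81 to 3.52) lay within the isotype range of 2.20 to 3.597. Without anti-PD-1 replicate 3 at 0 Gy, 12 of the 18 members had an unadjusted p under 0.05, and without replicate 2 at 20 Gy 16 did. When the spread was instead shared with the primary tumors in a fit of 48 tumors, 2 did.

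Of 16 T cell receptor beta variable (Trbv) genes tested, a set chosen after values were seen, 16 were positive and 9 were higher at an unadjusted p under 0.05, with a median log2 fold change of 1.30. The alpha variable (Trav) genes were less uniform. Of 6 tested, 4 were positive and 3 were higher at that p, with log2 fold changes from -1.27 to 2.06. Summed reads over the 27 Trbv genes of the table were few, at most 925 per library. At 0 Gy the sums spanned 2.44 to 9.96 CPM with isotype and 5.53 to 18.5 CPM with anti-PD-1, and at 20 Gy 4.12 to 10.7 and 5.76 to 21.9 CPM. The largest share held by 1 Trbv gene ran from 12.7 to 43.5% with anti-PD-1 and up to 38.6% with isotype, and 8 different genes led in the 16 libraries. No Trbv gene led in all 4 tumors of any group. The Gimap family, small GTPases of lymphocytes and likewise chosen after values were seen, had 9 of 9 entries higher at an unadjusted p under 0.05, from 0.44 for Gimap4 to 1.02 for Gimap7.

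The list of activated CD8 T cell genes, the inhibitory and costimulatory receptors of stimulated and exhausted T cells, had 9 of 14 members higher at an unadjusted p under 0.05 (median log2 fold change 0.78). Besides Ctla4 and Tnfrsf18 these included Icos, a costimulatory receptor (1.04), Cxcr6, a chemokine receptor of tissue-resident T cells (1.20), and Pdcd1 itself (0.73). Pdcd1 read 5.63 to 20.1 CPM with isotype and 13.8 to 34.2 CPM with anti-PD-1 at 0 Gy, and 6.88 to 13.2 against 9.21 to 17.9 CPM at 20 Gy, with overlap at both doses. The exhaustion markers Havcr2 (TIM-3) and Lag3 had log2 fold changes of 0.10 and 0.36 and did not reach that p.

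Of the regulatory T cell list, 4 of 9 members were higher at an unadjusted p under 0.05, namely Foxp3, Tnfrsf4, Ccr8 (a chemokine receptor, 0.89) and Il10 (an anti-inflammatory cytokine, 0.80), with a list median of 0.49. Lrrc32, a surface protein that holds latent TGF-beta, stood at -0.05. Ratios within a library test whether one T cell transcript differs beyond another. For 10 such log2 ratios, chosen after values were seen, in an exact permutation test that exchanged antibodies within each dose (4900 arrangements, two-sided) no difference between the antibodies passed an adjusted p of 0.05. Foxp3 to Cd3e differed by 0.33 (exact p = 0.365, Benjamini-Hochberg adjusted 0.731) and was above the isotype mean of its dose in 4 of 8 anti-PD-1 libraries. Ctla4 to Cd3e differed by 0.42 (exact p = 0.169, adjusted 0.731; 5 of 8), being -0.06 at 0 Gy and 0.91 at 20 Gy, and Icos to Cd3e by 0.24 (exact p = 0.141, adjusted 0.731; 7 of 8). Cd8a to Cd3e and Cd4 to Cd3e differed by -0.10 and -0.14 (exact p = 0.529 and 0.638, both adjusted 0.797). A difference in these ratios was not detectable with these libraries.

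Without anti-PD-1 replicate 2 at 20 Gy, a choice made after seeing the data, Ifng to Cd3e differed by 0.53 in place of 0.35 (exact p = 0.0433 in place of 0.238, not adjusted over the 10 ratios). The other 9 ratios kept exact p-values of 0.0906 or more without that library, and of 0.162 or more, with Ifng to Cd3e at 0.254, without anti-PD-1 replicate 3 at 0 Gy.

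**Figure D2:**
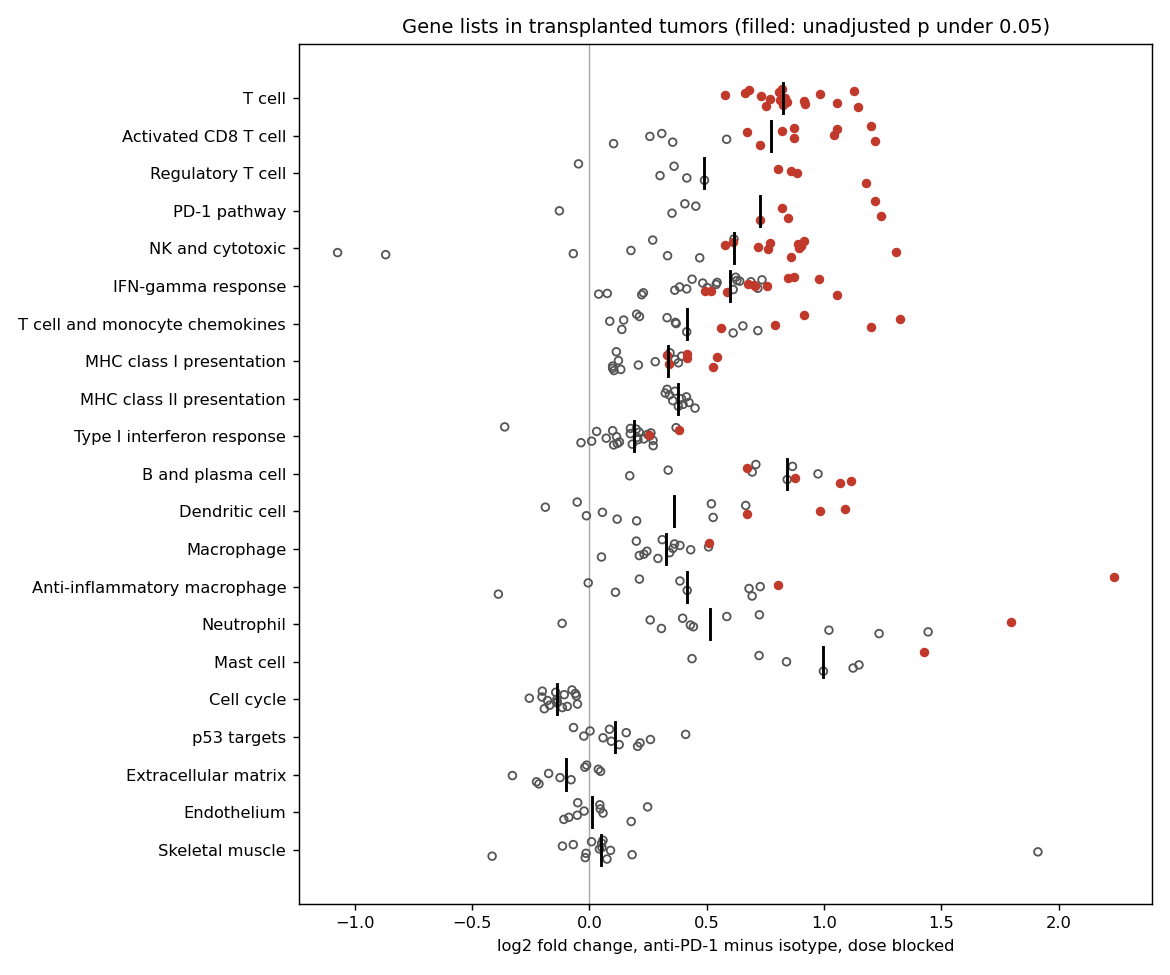
Log2 fold change of anti-PD-1 over isotype, with dose blocked, for every tested member (point) of 21 gene lists; filled points have an unadjusted p under 0.05 and black bars are list medians. All 18 T cell genes are filled, the 17 cell cycle genes lie just below 0, and the muscle, endothelium and matrix lists are centered near 0.

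Among the genes of the PD-1 axis, 5 of 9 were higher at an unadjusted p under 0.05, with a list median of 0.73. The lists share members. Pdcd1 and Ctla4 are also in the activated CD8 T cell list, Cd28 in the T cell list and Cd274 in the interferon-gamma list. Cd274 read 22.8, 26.0, 44.8 and 11.9 CPM with isotype and 75.0, 21.0, 83.0 and 44.1 CPM with anti-PD-1 at 0 Gy. At 20 Gy it read 76.6, 83.5, 92.0 and 102.7 CPM with isotype and 109.7, 104.95, 157 and 171 CPM with anti-PD-1, without overlap. Its log2 fold change was 0.85 (SE 0.28). Pdcd1lg2 had 1.24 (SE 0.39), of which anti-PD-1 replicate 3 at 0 Gy held the highest level (10.3 CPM), and 0.77 without that library. The phosphatase genes Ptpn6 and Ptpn11 stood at 0.35 and -0.13.

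Cytotoxic genes were mixed. Of the NK and cytotoxic list, 11 of 19 members were higher at an unadjusted p under 0.05 (median 0.62), among them Nkg7 of cytotoxic granules (0.76), Klre1 and Ncr1, receptors of NK cells (0.89 and 0.58), and Fasl, a death ligand (0.77). Gzmb, the main granzyme of cytotoxic T cells, had 0.86 (SE 0.32), with 15.3 to 79.2 CPM with isotype and 37.4 to 136.1 CPM with anti-PD-1 at 0 Gy and 130.6 to 202 against 142.3 to 387 CPM at 20 Gy. Prf1, the pore-forming perforin, had 0.18, and the granzymes Gzmd and Gzmf had -0.87 and -1.07, neither with an unadjusted p under 0.05.

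The interferon-gamma response list had 30 of 30 members with a positive log2 fold change and 11 higher at an unadjusted p under 0.05, with a median of 0.60. Ifng itself read 1.16, 0.834, 2.10 and 0.271 CPM with isotype and 3.29, 1.01, 3.89 and 2.62 CPM with anti-PD-1 at 0 Gy. At 20 Gy it read 0.786, 2.47, 2.85 and 2.21 CPM with isotype and 3.30, 2.05, 5.24 and 3.96 CPM with anti-PD-1. All 4 groups held low levels, and those of the 2 antibodies overlapped at both doses. The log2 fold change of Ifng was 1.05 (SE 0.38).

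Irf1 and Irf8, transcription factors that interferon-gamma induces, had log2 fold changes of 0.49 and 0.52, and the guanylate-binding protein Gbp5 had 0.71. Gbp5 read 17.1 to 100.3 CPM with isotype and 80.9 to 192 CPM with anti-PD-1 at 0 Gy, and 143.9 to 217 against 130.9 to 317 CPM at 20 Gy. Ifi47, an immunity-related GTPase outside the list, read 50.9 to 109.1 CPM with isotype and 106.7 to 206 CPM with anti-PD-1 at 0 Gy and 149 to 215 against 180 to 376 CPM at 20 Gy, with a log2 fold change of 0.77 (SE 0.19), and it overlaps Olfr56. The count of 11 depended on single libraries, being 26 without anti-PD-1 replicate 2 at 20 Gy and 5 without replicate 4 of that group. It was 6 without anti-PD-1 replicate 3 and 7 without isotype replicate 1 at 0 Gy, 19 without isotype replicate 3 at 0 Gy, and 17 without isotype replicate 3 at 20 Gy.

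The promoters of the interferon-gamma list were examined for sequence motifs. The list was made of genes of the interferon-gamma response, so its motif counts describe the list and do not test the effect of the antibody. RefSeq promoters (GRCm38.p6, 250 bases before to 50 after the first listed start site of each gene) were searched on both strands for TTCNNNGAA, the gamma-activated site of interferon-gamma target genes, and for the core of the interferon-stimulated response element, GAAA followed by any 2 bases and a second GAAA, with overlaps allowed. Of 27025 promoters, 8.47% held the first, 3.49% the second and 11.4% either. Of the 30 interferon-gamma genes, 21 had a promoter in the table, and 10 held the first motif, 11 the second and 15 either. Of the 26 genes of the type I interferon list, 20 had a promoter, and 3 held the first motif, 11 the second and 12 either. Of the 18 T cell genes, 9 had a promoter and 1 held either motif. Of the 10 genes with the smallest p, 8 had a promoter and 2 (Tnfrsf18 and Cish) held the first motif. A match is a run of letters and not a shown binding site.

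The promoters of 4 genes are printed 5′ to 3′ in the direction of the gene, with the matched letters in capitals. Igtp, an immunity-related GTPase with both motifs side by side, and Irf1, with 1 match to the gamma-activated site, stand for the interferon list. Cish, a cytokine-inducible inhibitor of cytokine signaling, has a pair of matches at and just after its start, and Tnfrsf18 has 1.
Igtp (chr11:58199306-58199605, + strand): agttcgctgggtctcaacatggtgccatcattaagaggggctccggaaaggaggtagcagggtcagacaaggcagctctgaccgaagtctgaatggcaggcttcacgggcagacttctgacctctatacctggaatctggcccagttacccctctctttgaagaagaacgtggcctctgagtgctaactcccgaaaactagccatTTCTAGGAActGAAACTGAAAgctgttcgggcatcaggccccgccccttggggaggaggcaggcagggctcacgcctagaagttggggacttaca
Irf1 (chr11:53769764-53770063, + strand): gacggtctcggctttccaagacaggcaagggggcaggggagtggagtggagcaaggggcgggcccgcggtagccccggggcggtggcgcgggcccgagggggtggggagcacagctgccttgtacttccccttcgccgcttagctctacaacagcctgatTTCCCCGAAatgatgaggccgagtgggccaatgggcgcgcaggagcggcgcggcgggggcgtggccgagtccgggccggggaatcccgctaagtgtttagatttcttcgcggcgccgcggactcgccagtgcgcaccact
Cish (chr9:107296409-107296708, + strand): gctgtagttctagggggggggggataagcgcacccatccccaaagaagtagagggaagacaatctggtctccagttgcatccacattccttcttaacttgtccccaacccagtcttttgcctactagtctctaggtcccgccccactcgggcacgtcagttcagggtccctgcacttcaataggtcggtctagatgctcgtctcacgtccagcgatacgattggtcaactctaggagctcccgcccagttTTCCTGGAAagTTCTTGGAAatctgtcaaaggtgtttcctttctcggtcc
Tnfrsf18 (chr4:156026072-156026371, + strand): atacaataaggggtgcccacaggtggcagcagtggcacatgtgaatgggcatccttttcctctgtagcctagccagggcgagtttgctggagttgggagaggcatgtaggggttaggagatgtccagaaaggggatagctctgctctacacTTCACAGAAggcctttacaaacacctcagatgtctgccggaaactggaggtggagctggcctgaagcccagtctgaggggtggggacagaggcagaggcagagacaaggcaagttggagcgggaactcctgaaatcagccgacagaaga

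Igtp had a log2 fold change of 0.68, from 38.2 to 211 CPM with isotype and from 188 to 311 CPM with anti-PD-1 at 0 Gy, and from 252 to 336 against 153 to 503 CPM at 20 Gy. Cish had 0.43 (SE 0.11), with 5.39 to 8.12 CPM against 7.65 to 11.8 CPM at 0 Gy and 8.99 to 10.6 against 11.7 to 14.1 CPM at 20 Gy. The Cish groups overlapped at 0 Gy only. Tnfrsf18 had 0.82 (SE 0.21) and overlapped at 0 Gy and not at 20 Gy, where isotype libraries held 5.68 to 8.49 CPM and anti-PD-1 libraries 8.65 to 15.7 CPM.

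Antigen presentation genes had smaller log2 fold changes. Of the MHC class I list, 6 of 18 members were higher at an unadjusted p under 0.05 (median 0.33), among them the immunoproteasome subunits Psmb8 (0.42) and Psmb9 (0.54) and the nonclassical H2-T23 (0.53). The classical heavy chains H2-K1 and H2-D1 had 0.13 and 0.10. Of the 11 MHC class II genes all were positive, none reached that p, and the median was 0.38. Of the T cell and monocyte chemokine list, 5 of 17 were higher, among them Ccl8, a monocyte chemokine (1.32), and Xcl1, which attracts cross-presenting dendritic cells (0.91).

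In the blocked comparison 2 of the 26 members of the type I interferon list were higher at an unadjusted p under 0.05 and the median was 0.19. Its median was 0.56 at 0 Gy, where 25 of 26 members were positive (49.0% of all genes), and -0.22 at 20 Gy, where 6 of 26 were (47.7% of all genes). The negative side at 20 Gy rested on anti-PD-1 replicate 2, whose list mean was 6.49 log2 CPM against 7.10 to 7.87 in the other 3 of its group and 7.05 to 7.97 with isotype. The difference of the list means at 20 Gy was -0.23 with that library and 0.000507 without it, and at 0 Gy it was 0.51. Isg15, a ubiquitin-like interferon-induced protein, averaged 63.3 ± 8.68 CPM with isotype and 91.5 ± 16.1 with anti-PD-1 at 0 Gy (SD, n = 4 each), and 428 ± 235 and 432 ± 292 at 20 Gy (SD, n = 4 each). In the test of the difference between doses no member of the list had an unadjusted p under 0.05.

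The antibody comparisons at 0 and 20 Gy share no libraries, and are given side by side. Both came from the same fit of all transplants, in which the groups share an estimate of each gene's spread. Their p-values are therefore not independent. Neither comparison had a gene past an adjusted p of 0.05 in edgeR's test. The smallest adjusted p was 0.9999 at 0 Gy and 0.683 at 20 Gy. At an unadjusted p under 0.05 there were 228 higher (1.28%) and 72 lower genes (0.406%) at 0 Gy and 447 higher (2.52%) and 230 lower genes (1.3%) at 20 Gy. DESeq2 and limma voom called none at either dose. Over all 17746 genes the log2 fold changes at the doses were hardly related (Pearson's r = 0.12, Spearman's rho = -0.01, across genes, which are not independent), and 46.8% had the same sign. Of these genes, 49.0% were positive at 0 Gy and 47.7% at 20 Gy.

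The genes at an unadjusted p under 0.05 at both doses numbered 43, which is 14.3% of the 300 at 0 Gy and 6.35% of the 677 at 20 Gy. As the doses share each gene's estimated spread, this is not an overlap of separate tests. Of the 43, 38 were higher at both doses, 3 lower at both, and 2 opposite. The 38 included Ctla4, Icos, Tnfrsf4, Tnfrsf18, Foxp3, Izumo1r, Cd2, Lck, Trbc1, Ifi47, Insl6, Pnp and Cish. Also among them, and named after their values were seen, were Ccl22, a ligand of the receptor CCR4 made by dendritic cells (log2 fold change 1.32, SE 0.38), Id2, a transcriptional regulator of innate lymphocytes and effector T cells (0.69, SE 0.19), and Cd226, an activating receptor of T and NK cells (1.26, SE 0.40). Of the 300 genes at 0 Gy, 79% had the same sign at 20 Gy, and of the 677 at 20 Gy, 63.1% had the same sign at 0 Gy.

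By list, the T cell genes had nearly equal medians at the 2 doses (0.89 and 0.78), with 18 of 18 members positive at each. Of these, 11 at 0 Gy and 5 at 20 Gy were higher at an unadjusted p under 0.05. The interferon-gamma list had 0.91 at 0 Gy with 17 of 30 higher at that p, and 0.25 at 20 Gy with none. Of all genes, 1.28% were higher at that p at 0 Gy and 2.52% at 20 Gy. The mean level of the interferon-gamma list with isotype was 5.63 ± 0.807 log2 CPM at 0 Gy and 7.08 ± 0.215 at 20 Gy (SD, n = 4 each). With anti-PD-1 it was 6.61 ± 0.407 and 7.28 ± 0.480 (SD, n = 4 each). At 20 Gy anti-PD-1 replicate 2 stood at 6.59, below every isotype library (6.84 to 7.32), and the other 3 at 7.41 to 7.69, above every one. The difference of the list means at 20 Gy was 0.20 with that library, 0.43 without it and 0.06 without anti-PD-1 replicate 4, and at 0 Gy it was 0.99. The test of the difference between doses called no gene (smallest adjusted p 0.865 in edgeR's test; 211 higher and 57 lower at an unadjusted p under 0.05, 1.19% and 0.321%; none by DESeq2 or limma voom) and no member of either list had an unadjusted p under 0.05 in it. A difference between doses was not shown for these lists. The 5 genes with the smallest p in that test were Zcchc3, Igkv19-93, Nefh, Ptpn22 and Ighv1-9. Zcchc3, which encodes a zinc finger protein, had anti-PD-1 libraries above all isotype libraries at 0 Gy (3.16 to 4.08 against 2.16 to 3.05 CPM) and below all of them at 20 Gy (2.87 to 3.51 against 3.64 to 4.74 CPM), a difference of -0.83 (SE 0.25) with an adjusted p of 0.865 in edgeR's test.

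**Figure D3:**
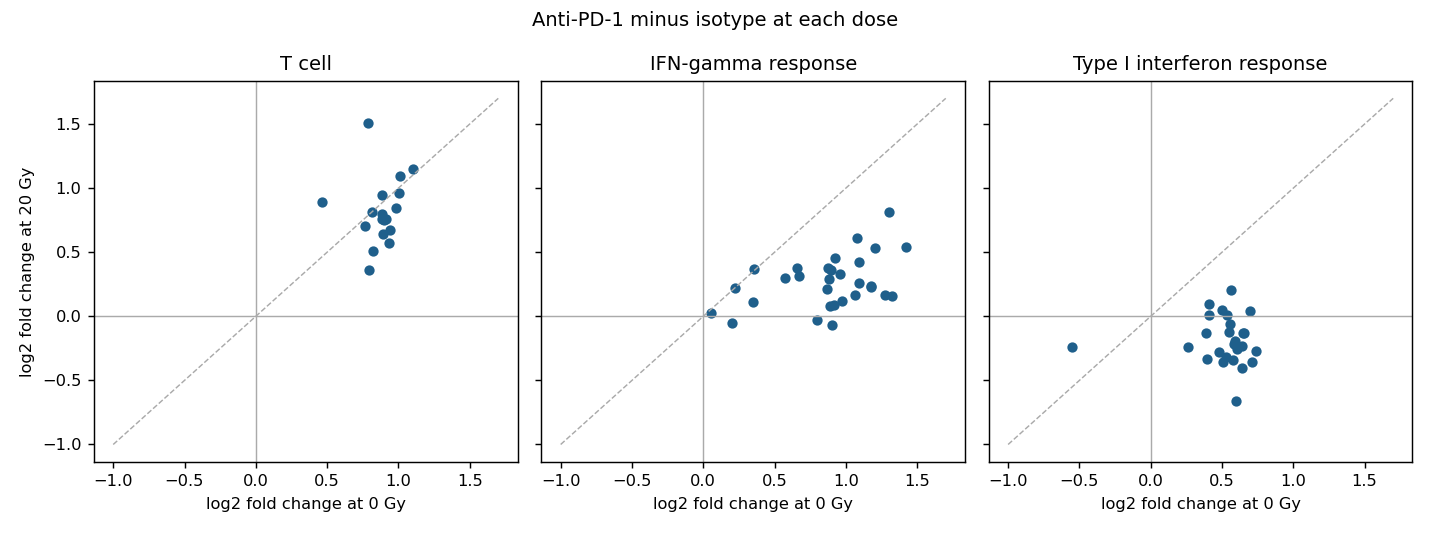
Log2 fold change of anti-PD-1 over isotype at 0 Gy (x axis) and at 20 Gy (y axis) for the members of 3 lists; the dashed line marks equal values. T cell genes lie near the line (medians 0.89 and 0.78), interferon-gamma genes lie below it (0.91 and 0.25), and type I interferon genes have medians of 0.56 and -0.22. At 20 Gy the interferon values rest in part on anti-PD-1 replicate 2, without which the type I list means differ by 0.000507 and the interferon-gamma list means by 0.43.

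Markers of other host cells were also examined. Of the B and plasma cell list, 4 of 11 members were higher at an unadjusted p under 0.05, among them Ms4a1 (CD20, 1.11) and Cd79b, a chain of the B cell receptor (0.87), and the list median was 0.84. The B cell list mean per library spanned 0.61 to 1.96 log2 CPM with isotype and 0.60 to 3.00 with anti-PD-1 at 0 Gy, and 1.28 to 1.57 against 1.72 to 2.72 at 20 Gy. It was highest in anti-PD-1 replicates 1 and 3 at 0 Gy (3.00 and 2.63) and in replicate 2 at 20 Gy (2.72), libraries in which the T cell list was also high.

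Mast cell genes had a median of 0.997 (Fcer1a, the IgE receptor, 1.43) with 1 of 7 at an unadjusted p under 0.05. Of the dendritic cell list 3 of 12 were higher, including Ccr7, which directs migration to lymph nodes (1.09). Macrophage markers had a median of 0.33 with 1 of 14 higher (Itgam, 0.51), and Adgre1, Csf1r and C1qa had 0.29, 0.05 and 0.23. Of the anti-inflammatory macrophage list 2 of 11 were higher, Il10, which was also counted in the regulatory T cell list, and Retnla (2.23, SE 0.85). Of the neutrophil list 1 of 12 was higher (Retnlg, 1.79). Retnla was low, at 0.0192 to 3.79 CPM with isotype and 0 to 8.06 CPM with anti-PD-1.

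Tissue around the tumor also differed between libraries. The adipose list had a blocked median of 1.89 with none of 8 at an unadjusted p under 0.05. At 20 Gy its median was 4.14 with 5 of 8 higher at that p (2.52% of all genes). In the test of the difference between doses, 4 of 8 were higher at that p (1.19% of all genes). Adipoq, the adipocyte hormone, was at 0.0192, 0.126, 0.959 and 0 CPM with isotype and 0.435, 21.99, 4.86 and 2.43 CPM with anti-PD-1 at 20 Gy. The liver list, high in 1 library at 20 Gy, had a blocked median of 1.56, the 5 red blood cell genes 0.93 and the 14 skeletal muscle genes 0.05, none with a member at that p. The muscle list means, however, were 1.10 log2 higher with anti-PD-1 at 0 Gy and 1.34 at 20 Gy. Without the muscle-poor isotype replicate 1 of each dose these differences were -0.48 and -0.16. The part of these tissues in the immune values was not tested beyond a fit with the muscle list mean as a covariate, in which 16 of 18 T cell and 10 of 30 interferon-gamma genes had an unadjusted p under 0.05.

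All 17 cell cycle genes had a negative blocked log2 fold change, from -0.26 for Plk1 to -0.05 for Ccnb2 (median -0.14), and none reached an unadjusted p under 0.05. At 0 Gy their median was 0.08 and at 20 Gy -0.36, where anti-PD-1 replicate 2, with the lowest list mean, lies. The difference of the cell cycle list means at 20 Gy was -0.41 with that library and -0.14 without it. Mki67, a marker of dividing cells, averaged 170 ± 32.4 CPM with isotype and 186 ± 68.3 with anti-PD-1 at 0 Gy, and 136.2 ± 33.0 and 95.7 ± 56.0 at 20 Gy (SD, n = 4 each). The lists of p53 targets (0 of 12, median 0.11), extracellular matrix (0 of 10, median -0.10), endothelium (0 of 10, median 0.01), hypoxia (0 of 10, median 0.04), immediate early genes (0 of 12, median 0.10), TGF-beta pathway (0 of 11, median -0.05), regenerating muscle (0 of 9, median 0.45) and skin (0 of 2, median 0.01) had no member at that p in either direction, and peripheral nerve glia had 1 of 6 (Mag, 0.57). By dose the extracellular matrix list had a median of 0.17 at 0 Gy, with 9 of 10 members positive, against 49.0% of all genes. At 20 Gy the median was -0.45, with 0 of 10 positive, against 47.7% of all genes. No member had an unadjusted p under 0.05 at either dose. The difference of the matrix list means at 20 Gy was -0.44, and it ran from -0.79 to -0.17 without 1 library.

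**Figure D4:**
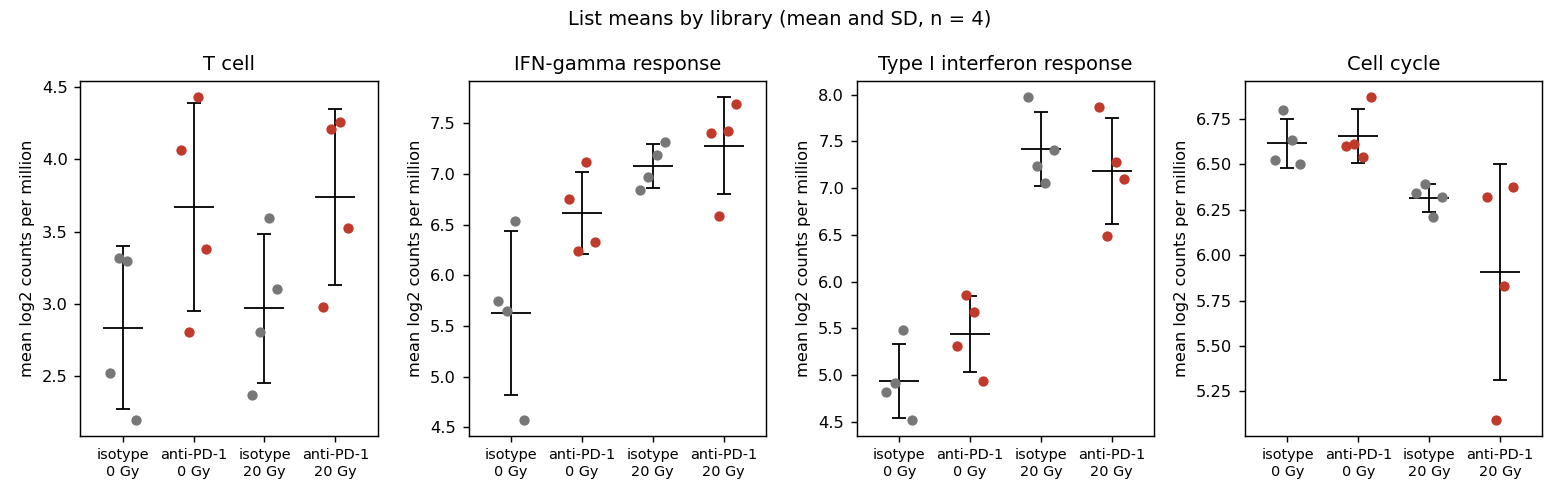
Mean log2 CPM of 4 gene lists in each transplant library (points), with mean and SD of the 4 libraries of each antibody and dose (bars); gray is isotype and red anti-PD-1. The T cell means of the antibodies overlap at both doses, and 1 anti-PD-1 library at 20 Gy has a cell cycle mean of 5.09, below the rest.

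Trp53, the deleted gene, still gave reads in all 16 libraries (25.3 to 46.6 CPM), with a log2 fold change of 0.06, and gene-level counts do not separate host cells from transcripts that lack the deleted exons. The genes with the smallest p in the lower direction were Rn7sk, Lipt1, Ctf1, Cgnl1, Ttc19, Hist1h2bg, Tbx2, Zfp365, Mum1l1 and Stxbp4, all with an adjusted p of 0.955 in edgeR's test. Apart from Rn7sk (-1.005, SE 0.30) their log2 fold changes ran from -0.62 to -0.22. Rn7sk is the 7SK small nuclear RNA, which has no poly(A) tail and is poorly caught by oligo-dT beads, and read 15.7, 62.5, 28.5 and 104.2 CPM with isotype and 16.5 to 28.8 CPM with anti-PD-1 at 0 Gy. Its isotype values were spread more widely than its anti-PD-1 values.

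Primary tumors offered a comparison of the same antibodies in sarcomas that arose in the mouse sampled, with 16 libraries for each antibody. In a joint fit of the 48 tumors edgeR called 3 genes there (0.0155% of 19327 tested), Isl1 (3.97), Slc5a7 (4.17) and Tex11 (5.13), with adjusted p-values of 0.0145, 0.0251 and 0.0145, DESeq2 called 14 and limma voom none. A fit of the primary tumors alone called 0 (smallest adjusted p 0.260 in edgeR's test). The T cell list had a median of 0.59 in primary tumors with 5 of 18 members higher at an unadjusted p under 0.05 (4.15% of all genes). Cd3e and Cd8a had 1.01 and 0.93 there, against 0.75 and 0.77 in transplants.

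The interferon-gamma list had a median of 0.29 in primary tumors and the NK and cytotoxic list -0.43, with 3 members lower at an unadjusted p under 0.05 (2.73% of all genes). The test of the difference between models, transplant minus primary, called no gene in edgeR (smallest adjusted p 0.9999) and none in limma voom. DESeq2 called only Skint3, at an extreme log2 fold change of 21.4 (adjusted p 1.23e-15). In edgeR's test of that difference 336 genes were higher and 188 lower at an unadjusted p under 0.05 (1.74% and 0.973%). The NK and cytotoxic list had 7 of 19 members higher there at that p, with a median difference of 0.85. The T cell list had 1 of 18 (median 0.18) and the interferon-gamma list none of 30 (median 0.32). The 5 genes with the smallest p in that test were Rgs18, Rap1gap, Rian, Dmp1 and Slc25a31, and in Rgs18, a regulator of G protein signaling, the difference was 2.10 and the value in primary tumors -0.64, both from the fit of 48 tumors. A difference between models was not shown for any gene by edgeR's test.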

How the data were processed

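RNA was measured in bulk tumors, 16 transplants for the comparison described and 32 primary tumors beside them. As the labels and methods describe it, the authors selected mRNA with oligo-dT beads (KAPA stranded kit; RNA integrity number above 7), removed adapters with Trimmomatic 0.36, used STAR for alignment to mm10, and counted reads per GENCODE gene with HTSeq as run by STAR. The strand setting of the counting is not given in the sources used here, so overlapping genes are uncertain. The deposited values were raw whole-number counts per gene, neither normalized nor pooled.

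Groups came from the labels, and each library is a separate mouse with its own number. Replicate numbers follow accession order and pair nothing. The p-values measure the spread between mice that all carried tumors of 1 line. Counts were filtered (filterByExpr by group), scaled by TMM and tested with edgeR 4.0.16 (robust quasi-likelihood, R 4.3.3, Benjamini-Hochberg over all genes tested). The main design was an antibody term with dose as a block over 16 transplants. The doses, and the difference between them, came from a mean per group of the same libraries, and primary tumors and models from a mean per group of 48 tumors. DESeq2 1.42.0 (without independent filtering) and limma 3.58.1 (voom), other scalings and filters, a muscle covariate, the first digit of the mouse number as a covariate and leaving out each library were alternatives. Log2 CPM used a prior count of 2. Scripts were tested on simulated data. Gene names and positions came from GENCODE M21 (37408 of 37469 identifiers matched). In 24 pairs of libraries of a group Spearman's rho was 0.940 to 0.986 and chi-square over its degrees of freedom at least 90.1, so none was a duplicate.

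Named genes were Trp53, Pdcd1 and its ligands, Xist and 4 Y-linked genes, members of the lists, and, as fewer than 10 genes passed, the 10 with the smallest p in each direction at an average log2 CPM of at least 0. The members and lists were chosen with earlier results of these data known, and no list's count is independent evidence. The line and parental tumor libraries, exome and single-cell data were not analysed here. Depth (36808039 to 54008259 counts) leaves genes near 1 CPM with few reads and the widest counting error.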

Additional observations from a re-analysis of the deposited data

Results flagged for a closer look

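In 17 of 236 sets of 4 libraries, 1 library lay farther from the rest of its group than Dixon's critical value allows at the 95% level. Chance alone gives about 1 in 20 sets, or 5%. Values are log2 CPM and no explanation was tested.

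Among the genes higher with anti-PD-1, isotype replicate 2 at 0 Gy was the high one for Ctla4 (2.81, against 1.66 to 1.78 in the other 3) and Tnfrsf18 (2.64, against 2.03 to 2.11). Isotype replicate 3 at 20 Gy was the high one for Izumo1r (0.33, against -0.60 to -0.51). Anti-PD-1 replicate 4 at 0 Gy was the low one for Foxp3 (1.08, against 2.00 to 2.18) and for Insl6 (1.03, against 1.87 to 2.03). Among the genes lower with anti-PD-1, Ctf1 was high in isotype replicate 2 at 20 Gy (3.12), Zfp365 was low in isotype replicate 3 at 0 Gy (3.21) and Stxbp4 was high in isotype replicate 1 at 0 Gy (4.65).

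Of the gene lists, the mean of MHC class I genes was low in anti-PD-1 replicate 2 at 20 Gy (8.13, against 8.77 to 8.89). In isotype replicate 1 at 20 Gy the chemokine list was high (6.60, against 5.85 to 5.97) and the anti-inflammatory macrophage list low (4.08, against 4.71 to 4.75). The extracellular matrix list was low in anti-PD-1 replicate 1 at 0 Gy (9.51, against 10.3 to 10.4), and the liver list was high in anti-PD-1 replicate 3 at 20 Gy (5.09, against -2.41 to -1.30).

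Host sex, which the labels do not give, varied within groups. Xist stood apart in replicate 2 of isotype (6.44) and of anti-PD-1 (6.25) at 0 Gy, where it was high, and in isotype replicate 2 at 20 Gy (-3.04), where it was low. The Y-linked Kdm5d was low in anti-PD-1 replicate 2 at 20 Gy (1.80, against 3.72 to 4.09). Y-linked reads do not give host sex here, as Ddx3y was read in all 16 libraries. Isotype replicate 2 at 0 Gy, for example, held 86.9 CPM of Xist and 51.8 CPM of Ddx3y. The source of the Y-linked reads was not tested.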

How the results depend on the processing

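No paired analysis was possible because the labels give no replicate numbers shared between groups. The count of 0 genes at an adjusted p of 0.05 in the blocked transplant comparison stayed 0 under every alternative run except DESeq2, which called 1, and leaving out any 1 library gave 0 to 0. The same range of 0 to 0 held at each dose, between doses and between models. DESeq2 called 14 genes in primary tumors and 1 between models, limma voom 0 in primary tumors, and a fit of primary tumors alone 0.

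Counts at an unadjusted p under 0.05 moved more, and were added after seeing the data. The 18 T cell genes became 2 in the fit of 48 tumors and ranged from 12 to 18 without 1 library. The 11 interferon-gamma genes became 17 with DESeq2 size factors, 19 without a filter, 18 with the 1 CPM filter, 18 with DESeq2, 5 in the fit of 48 tumors and 2 without the dose block, and ranged from 5 (without anti-PD-1 replicate 4 at 20 Gy) to 26 (without replicate 2 of that group). The 546 higher genes became 1189 without a filter and 337 in the fit of 48 tumors, and ranged from 302 (without anti-PD-1 replicate 3 at 0 Gy) to 1100 (without replicate 4 of that group). They were 844 without isotype replicate 3 and 852 without anti-PD-1 replicate 2 at 0 Gy. The lower genes became 76 with DESeq2 size factors, 260 without a filter, 57 with the 1 CPM filter, 197 with limma voom, 46 in the fit of 48 tumors and 83 without the dose block. They ranged from 58 (without anti-PD-1 replicate 3 at 20 Gy) to 377 (without anti-PD-1 replicate 2 at 0 Gy). The causes were not tested.

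Over the named genes, 646 values kept their direction and side of the threshold. Tnfrsf4 passed it in DESeq2 only (adjusted p 0.0143, range 0.0143 to 0.999998 over 28 settings, log2 fold change 0.80 to 0.97). The log2 fold change of Trp53 was 0.06, turned to -0.0377 without anti-PD-1 replicate 3 at 0 Gy, and reached 0.14 without replicate 4 of that group. The depth leaves genes near 1 CPM, such as Izumo1r and Ccr8, with few reads. The differences of list means without 1 library at a dose were likewise added after seeing the data.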

Other observations

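Immunoglobulin variable genes, which B and plasma cells rearrange and express, were examined beside those of T cells. Of 66 Igkv genes tested, 55 were positive and 7 were higher at an unadjusted p under 0.05 (median log2 fold change 0.52), and of 37 Ighv genes 29 were positive and 3 were higher (median 0.29). Of all genes tested, 43.9% were positive and 3.08% were higher at that p. The 11 guanylate-binding protein genes were all positive, with 6 higher at that p (median 0.70). Families outside the immune system, taken beside these after values were seen, had few such members, with 0 of 14 Ndufa genes of mitochondrial complex I and 1 lower of 19 Rps ribosomal protein genes.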
